A study of Homo sapiens with 4 samples.

Results

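The genes described here are 9 enzymes of glutamate metabolism and of the proline synthesis that starts from it, taken from 43317 gene names on the array. They are GLS2, GLUD1, GLUL, GOT1, GOT2, GPT, GPT2, ALDH18A1 and PYCR1, and every gene probe whose name on the array equals one of these symbols was used, which gave 10 probes. The genes were chosen by their levels on these arrays and by the differences between miR-891b and NC1 in each line, which were known when the list was drawn up. Those values are therefore given as a description, with no test.

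Total RNA (100 ng per array) came from HCT116, a colorectal cancer line, and A549, a lung cancer line. Each line was transfected, with the lipid reagent Dharmafect1, with the microRNA miR-891b or with NC1, the negative control. The 2 lines and 2 RNAs give 4 groups with a single array for each, so no difference below has a replicate check. The study concerns PSAT1, an aminotransferase of serine synthesis that takes its amino group from glutamate, and the release of extracellular vesicles.

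Glutamine enters metabolism when a glutaminase splits off its amide nitrogen and leaves glutamate. Glutamate then yields 2-oxoglutarate for the citric acid cycle, either through glutamate dehydrogenase or through transaminases that pass its amino group to another keto acid. It can also be turned back into glutamine by glutamine synthetase, or be reduced in several steps to proline. Many cultured cancer cells draw on glutamine as a source of both carbon and nitrogen.

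The microRNA acts mainly through its seed, bases 2 to 8, which pair with complementary sites in transcripts. Its mature sequence in RefSeq (GRCh38.p14, chrX:146001100-146001121, minus strand) is shown because it is the treatment that all comparisons within a line share, with the seed in capitals:
hsa-miR-891b: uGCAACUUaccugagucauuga
The 7 bases that pair with this seed, AAGTTGC, were not present in any of the 10 probe sequences of the 9 genes, each of 60 bases. They were present in 0.393% of the 58201 gene probes on the array. A probe covers a small part of its transcript, and the rest of these transcripts was not analysed here.

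Between 44.7% and 50.3% of gene probes were well above background on the 4 arrays, by the mark that the scanner software sets, and no gene spot was saturated. Both arrays of a line lay on 1 slide, so cell line and slide cannot be told apart. The labels name McCoy's 5A and DMEM as culture media without stating which line was in which. Of 7 genes listed as A549 markers, 6 were higher in A549 than in HCT116 on the NC1 arrays, and of 8 listed as HCT116 markers, 5 were lower and 2 higher, with GPA33 at background on all arrays. Of 8 fibroblast markers, 2 were well above background in HCT116 with either RNA, 4 in A549 with NC1 and 5 in A549 with miR-891b, and COL1A2, COL3A1 and DCN were so on none. The log2 of their summed level was 1.41 and 1.15 in HCT116 with NC1 and with miR-891b, and 2.10 and 3.41 in A549. Of the 4 measured on both A549 arrays, only LUM was higher with miR-891b, by 2.14 on the log2 scale. COL1A1 (-0.59), THY1 (-1.04) and PDGFRB (-0.04) were below 0 there. The part of these markers in the results was not tested.

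The HCT116 miR-891b array stood apart. Areas of stray signal, in which at least 10% of the surrounding spots were bright there though dim on the remaining arrays, held 10.5% of its gene spots, against 0.0213% to 2.2% elsewhere. The brightest probe of each of the 7 members measured lay outside such areas on every array. The nearest to the limit was GOT1 on HCT116 miR-891b, where 9.40% of nearby dim spots were bright.

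Of the 9 genes, 7 were well above background on all 4 arrays: GLUD1, GLUL, GOT1, GOT2, GPT2, ALDH18A1 and PYCR1. GLS2, the liver-type glutaminase, and GPT, the cytosolic alanine transaminase, were not well above background on any array. The only glutaminase among the 9 genes thus gave no measurement, and the measured genes act at other steps. The GLS2 probe (chr12:56865920-56865979, hg19, minus strand) had background-subtracted signals of 1.02 and 1.39 intensity units in HCT116 with NC1 and with miR-891b, and 1.04 and 1.03 in A549. The GPT probe had 1.59 and 2.17 in HCT116 and 1.099 and 1.16 in A549. No fold is given for either gene.

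Levels below are log2 signals relative to the 75th percentile of the array, and changes are miR-891b minus NC1 on that log2 scale. Levels are compared between arrays for 1 probe, never between genes. The scanner software put the error of each measured signal at about 10.0%, which carries into an error of 0.204 on a log2 change for each of the 7 genes. Probes printed at 5 or more spots gave a median SD of a log2 change of 0.0615 in HCT116 and 0.0711 in A549. Both errors cover spots on an array and not the spread between cultures.

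None of the 7 measured genes was 2-fold lower or higher with miR-891b in either line. Over all genes measured, 0.843% were at least 2-fold lower and 1.16% at least 2-fold higher in HCT116, and 5.57% and 4.01% were in A549. At 1.5-fold, none of the 7 genes was past the threshold in HCT116, where 5.65% of all genes were lower and 3.91% higher. In A549, GOT1 was past it on the lower side and GLUL on the higher side, where 15.3% and 11.1% of all genes were. GLUL was within 1.5-fold with normexp background correction, at 0.55, and PYCR1 was past it with quantile normalization, at 0.74. The median change of the 7 genes was -0.37 in HCT116, where 19108 genes had a median of -0.04, and -0.16 in A549, where 21337 genes had a median of -0.06. In HCT116, 5 of the 7 genes had a change below 0, and in A549, 4 had, where 55.5% and 55.6% of all genes did. GOT1 and GOT2 were below 0 in both lines, GOT2 turning to above 0 in both under quantile normalization, no gene was above 0 in both, and the other 5 had opposite signs in the lines. Of the 18066 genes measured on all 4 arrays, 33.8% were below 0 in both lines, 21.1% above 0 in both and 45.1% of opposite sign.

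**Figure D1:**
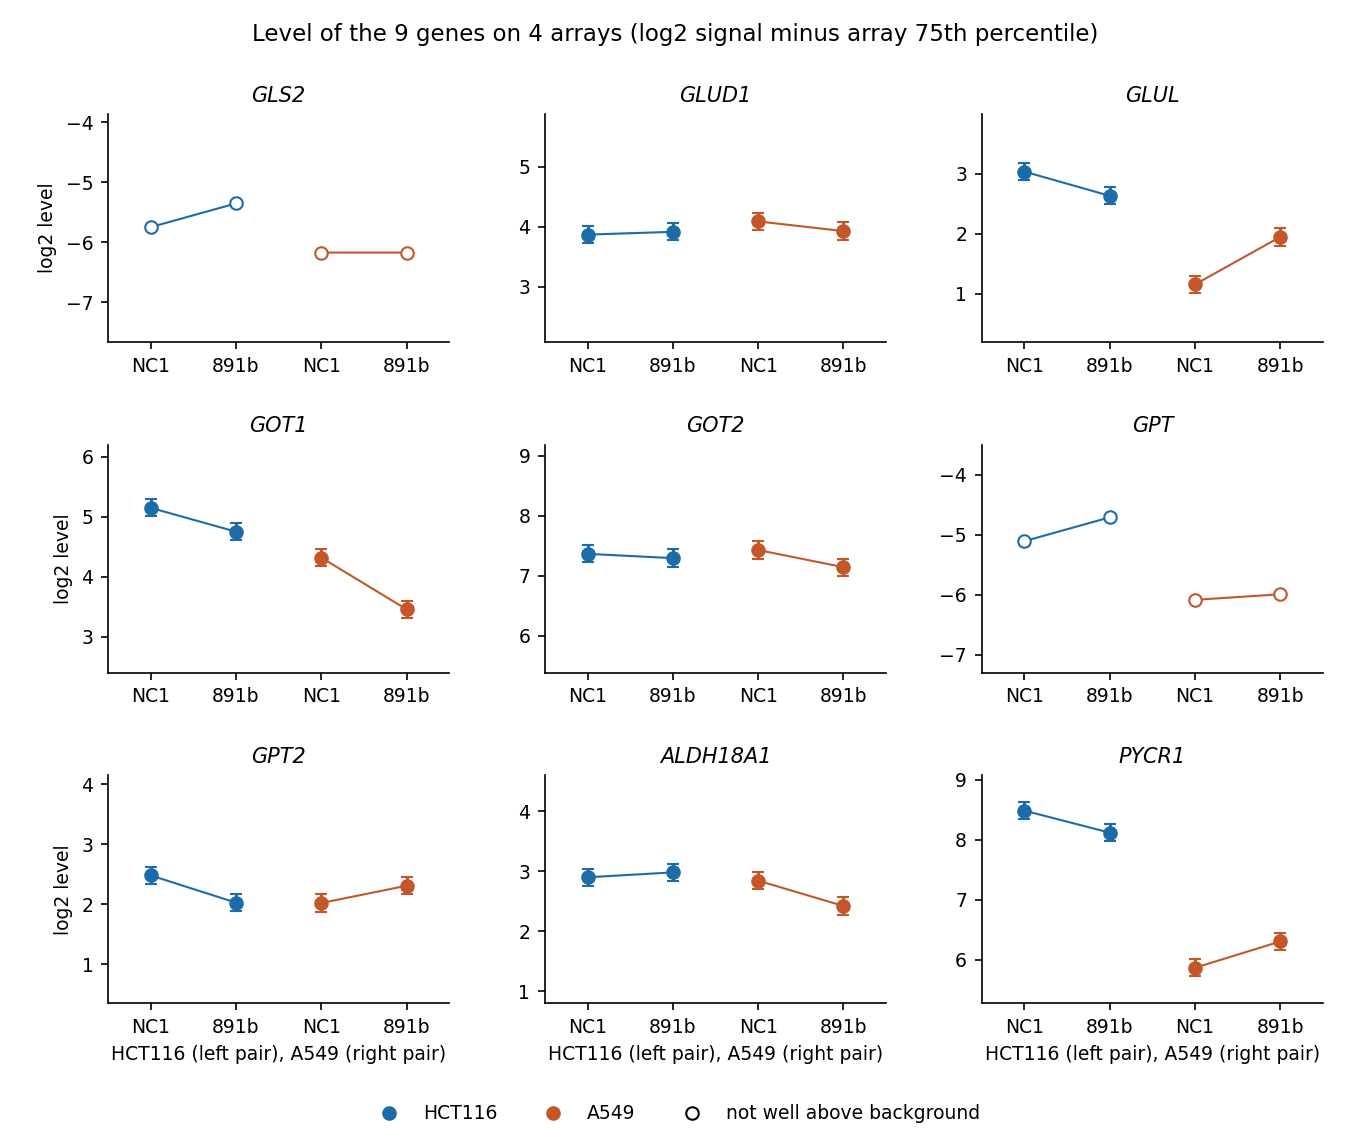
Log2 level (signal minus the array's 75th percentile) of each gene on the 4 arrays, by its brightest probe, with the software's error as bars and open circles for signals not well above background. Each panel spans the same number of log2 units; GOT1 was lower with miR-891b in both lines, GLUL and PYCR1 were lower in HCT116 and higher in A549, and the GLS2 and GPT circles are open on all 4 arrays.

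The first step after glutaminase was measured by GLUD1, the mitochondrial glutamate dehydrogenase, which turns glutamate into 2-oxoglutarate and ammonia. Its probe (chr10:88811026-88811085, hg19, minus strand) had levels of 3.87 and 3.92 in HCT116 with NC1 and with miR-891b, and 4.09 and 3.93 in A549. These 4 levels were the closest together of any of the 7 genes. The changes were 0.05 in HCT116 and -0.16 in A549, both within the software's error of 0.204. GLUD2 is a near copy of GLUD1 with its own probe, which changed by 0.20 and -0.23, and how far either probe also binds the other transcript was not tested.

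GLUL, glutamine synthetase, runs the opposite way and makes glutamine from glutamate and ammonia. Its probe (chr1:182352737-182352796, hg19, minus strand) had levels of 3.04 and 2.63 in HCT116 with NC1 and with miR-891b, and 1.16 and 1.95 in A549. The gene was thus lower with miR-891b in the line where it was high, and higher in the line where it was low. The changes were -0.40 in HCT116 and 0.79 in A549, the latter a signal 1.73 times that of NC1. This was the largest rise among the 7 genes in either line. The A549 minus HCT116 difference accordingly went from -1.88 on the NC1 arrays to -0.68 on the miR-891b arrays.

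The aspartate transaminases move an amino group between glutamate and aspartate, GOT1 in the cytosol and GOT2 in mitochondria, and both take part in the malate-aspartate shuttle. The GOT1 probe (chr10:101157225-101157284, hg19, minus strand) had levels of 5.15 and 4.75 in HCT116 with NC1 and with miR-891b, and 4.32 and 3.46 in A549. The level was lower with miR-891b in both lines, and both A549 levels were below both HCT116 levels. The changes were -0.40 and -0.86, which are signals 1.32-fold and 1.82-fold lower than those of NC1. The A549 change was the lowest of the 7 genes.

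GOT2 (chr16:58741037-58741096, hg19, minus strand) had levels of 7.37 and 7.30 in HCT116 with NC1 and with miR-891b, and 7.43 and 7.15 in A549. The changes were -0.07, within the software's error, and -0.29, beyond it. Quantile normalization turned both signs, to 0.0048 in HCT116 and 0.11 in A549, so no direction is given for GOT2.

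GPT2 is the mitochondrial alanine transaminase, which makes alanine from pyruvate with the amino group of glutamate. Its probe (chr16:46964768-46964827, hg19, plus strand) had levels of 2.48 and 2.03 in HCT116 with NC1 and with miR-891b, and 2.02 and 2.31 in A549. The changes were -0.45, the lowest of the 7 genes in HCT116, and 0.29 in A549. Both exceeded the software's error and had opposite signs, but with normexp correction the A549 change was 0.198, within that error. On the NC1 arrays A549 was below HCT116 by a difference of -0.46, and on the miR-891b arrays it was above by 0.28.

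Proline synthesis branches off from glutamate. ALDH18A1, also called P5CS, carries out the first steps by making the precursor of pyrroline-5-carboxylate. Its probe (chr10:97366137-97366196, hg19, minus strand) had levels of 2.90 and 2.98 in HCT116 with NC1 and with miR-891b, and 2.84 and 2.42 in A549. The first 3 of these levels lay close together and A549 miR-891b lay below them. The changes were 0.08, within the software's error, and -0.42, beyond it.

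PYCR1, the mitochondrial reductase that makes proline from pyrroline-5-carboxylate, was the only 1 of the 9 genes with more than 1 probe. The brighter probe (chr17:79890331-79890390, hg19, minus strand) had levels of 8.49 and 8.12 in HCT116 with NC1 and with miR-891b, and 5.87 and 6.31 in A549. Both HCT116 levels were far above both A549 levels. The changes were -0.37 in HCT116 and 0.44 in A549, and quantile normalization brought them to -0.17, within the software's error, and to 0.74. The other probe (chr17:79893242-79893301) had levels of 1.72, 1.43, -1.12 and -0.59 on the same arrays in the same order. Its changes of -0.29 and 0.53 had the signs of the first probe, although its spot on HCT116 miR-891b lay in an area of stray signal, with 15.3% of nearby dim spots bright.

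The lines were then compared with each other, a comparison that cannot be told apart from slide. On the NC1 arrays, A549 was at least 2-fold lower for 2 of the 7 genes and 2-fold higher for none, where 16.2% of 19220 genes were that much lower and 11.1% that much higher. PYCR1 was 6.14-fold higher in HCT116 by the brighter probe and 7.15-fold by the other. GLUL was 3.68-fold higher in HCT116. On the miR-891b arrays PYCR1 was 3.51-fold higher in HCT116 and GOT1 2.45-fold, while GLUL was 1.61-fold higher there. Among all 18579 genes measured on these arrays, A549 was lower by at least 2-fold for 20.7% and higher for 11.4%. The remaining genes lay within 2-fold of each other on both pairs of arrays, and GLUD1 and GOT2 differed by 0.22 or less on the log2 scale. With quantile normalization the NC1 difference was 0.37 for GLUD1 and 0.30 for GOT2, and that of GOT2 on the miR-891b arrays went from -0.15 to 0.40. Over all the scalings, quantile normalization included, the NC1 difference of PYCR1 ran from -2.62 to -2.27 and that of GLUL from -1.88 to -1.42.

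**Figure D2:**
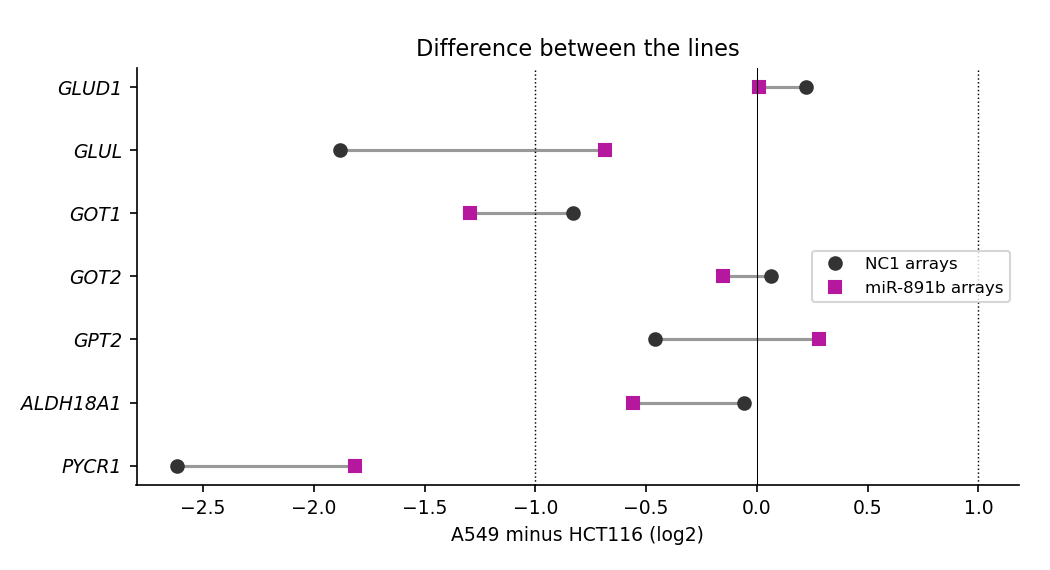
A549 minus HCT116 difference in log2 level for the 7 measured genes on the NC1 arrays (circles) and on the miR-891b arrays (squares), with dotted lines at 2-fold. PYCR1 lay past 2-fold on both pairs of arrays, GLUL on the NC1 arrays and GOT1 on the miR-891b arrays.

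The genes whose pattern lay nearest to that of GOT1, the gene with the largest summed change, were CARD9, OSBPL1A and HAUS5. Nearness was the distance over 3 values, the changes in HCT116 and A549 and the difference between the lines on the NC1 arrays. From the 18066 genes, the members were left out, as were accession-like, LOC, LINC and XLOC names and names starting with CHR. The distances were 0.0648, 0.0845 and 0.0860. CARD9 changed by -0.39 and -0.81 in HCT116 and A549, OSBPL1A by -0.35 and -0.87, and HAUS5 by -0.34 and -0.85.

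GLUD1, ALDH18A1 and GOT1 all lie on chromosome 10. Stretches before the start of the gene were found in RefSeq for 6 of the 9 genes, in 7 windows of 250 bases. They were searched on both strands for TGATGNAA, a motif bound by ATF4 with C/EBP partners, and for the E-box CACGTG, bound by MYC and related factors. ATF4 and MYC are known regulators of amino acid and glutamine metabolism. Of these windows, 1 held the first motif (GOT1) and 1 the second (ALDH18A1), and over all 35116 windows of the same length the shares were 3.14% and 6.34%. Both stretches are shown because they hold a match, with the matching bases in capitals. GOT1 is at chr10:99430625-99430874 and ALDH18A1 at chr10:95656712-95656961 (GRCh38.p14, minus strand), and the matches begin 198 and 136 bases before the start:
GOT1: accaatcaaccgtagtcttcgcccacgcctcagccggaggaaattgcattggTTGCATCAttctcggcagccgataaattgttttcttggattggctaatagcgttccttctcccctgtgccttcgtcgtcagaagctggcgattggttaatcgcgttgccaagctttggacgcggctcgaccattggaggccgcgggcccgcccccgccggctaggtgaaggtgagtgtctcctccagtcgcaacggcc
ALDH18A1: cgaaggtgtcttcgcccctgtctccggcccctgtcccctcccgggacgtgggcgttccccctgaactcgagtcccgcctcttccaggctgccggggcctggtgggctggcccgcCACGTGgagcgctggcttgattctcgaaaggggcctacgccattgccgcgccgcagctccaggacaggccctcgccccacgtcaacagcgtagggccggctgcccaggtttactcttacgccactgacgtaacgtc
A match is a description of the letters and not of binding.

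Other genes of the pathway were taken from 4 lists with 44 genes in all. In HCT116, 2 of 39 measured list genes (ASNS and PRODH) were at least 2-fold lower and 0 were at least 2-fold higher, against 0.843% and 1.16% of all genes. Of 40 measured in A549, 3 (ABAT, PSAT1 and PFAS) were lower and 1 (SLC1A1) was higher by that much, against 5.57% and 4.01%.

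Of the 15 other glutamate enzymes, 13 were measured in each line, with a median change of -0.18 in HCT116 and -0.23 in A549. ASNS, which makes asparagine with glutamine as amide donor, changed by -1.05 in HCT116 and -0.71 in A549. ABAT, the GABA transaminase, changed by -0.67 and -1.37, and PSAT1 by -0.81 and -1.58. A second ABAT probe stayed at background on all arrays. Normexp correction brought ABAT to -0.38 in A549, and quantile normalization brought ASNS to -0.96 in HCT116, both within 2-fold. ALDH5A1, which follows ABAT in the breakdown of GABA, changed by -0.86 and 0.17. GCLC, the catalytic subunit that joins glutamate to cysteine for glutathione, changed by -0.04 and -0.75.

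The proline list had a median change of -0.38 over 5 measured genes in HCT116, all below 0, and 0.19 over 6 genes in A549, of which 2 were below 0. Of the 5 genes in HCT116, PEPD (-0.13) lay in an area of stray signal on HCT116 miR-891b, with 21.8% of nearby dim spots bright. Genes below 0 made up 55.5% of all genes in HCT116 and 55.6% in A549. ALDH4A1 completes the breakdown of proline to glutamate, and its brightest probe changed by -0.80 and -0.98. A dimmer ALDH4A1 probe changed by 0.12 and 0.03. OAT, which links ornithine to proline synthesis, changed by -0.20 and 0.36.

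PRODH, the first enzyme of proline breakdown, changed by -1.03 in HCT116 and 0.41 in A549 at its brightest probe. Normexp correction brought the HCT116 change to -0.45, within 2-fold. Another PRODH probe changed by 1.62 in HCT116, from a dim NC1 signal of 6.65 with an error of 18.9%. The remaining PRODH probes, at -0.11 and -0.72, were not well above background on both HCT116 arrays. The mean over the probes that were so was 0.30, so the direction there depended on the probe. Of the 9 glutamine amidotransferases by their brightest probes, PFAS, an enzyme of purine synthesis, was past 2-fold in A549. It changed by -1.20 there, against 0.25 in HCT116, and by -0.68 in A549 with normexp correction. Dimmer probes of CTPS1 and GFPT1 were also past 2-fold in A549, at -1.06 and -1.03. The brightest probes of CTPS1 and GFPT1 were at -0.77 and 0.17. Of the 14 carriers, SLC1A1, a plasma membrane importer of glutamate and aspartate, was past 2-fold in A549. Its levels were 2.68 and 2.68 in HCT116 with NC1 and with miR-891b, and -0.17 and 1.53 in A549, a change of 1.70 in A549. SLC1A5, a main glutamine importer, changed by -0.45 and -0.15.

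**Figure D3:**
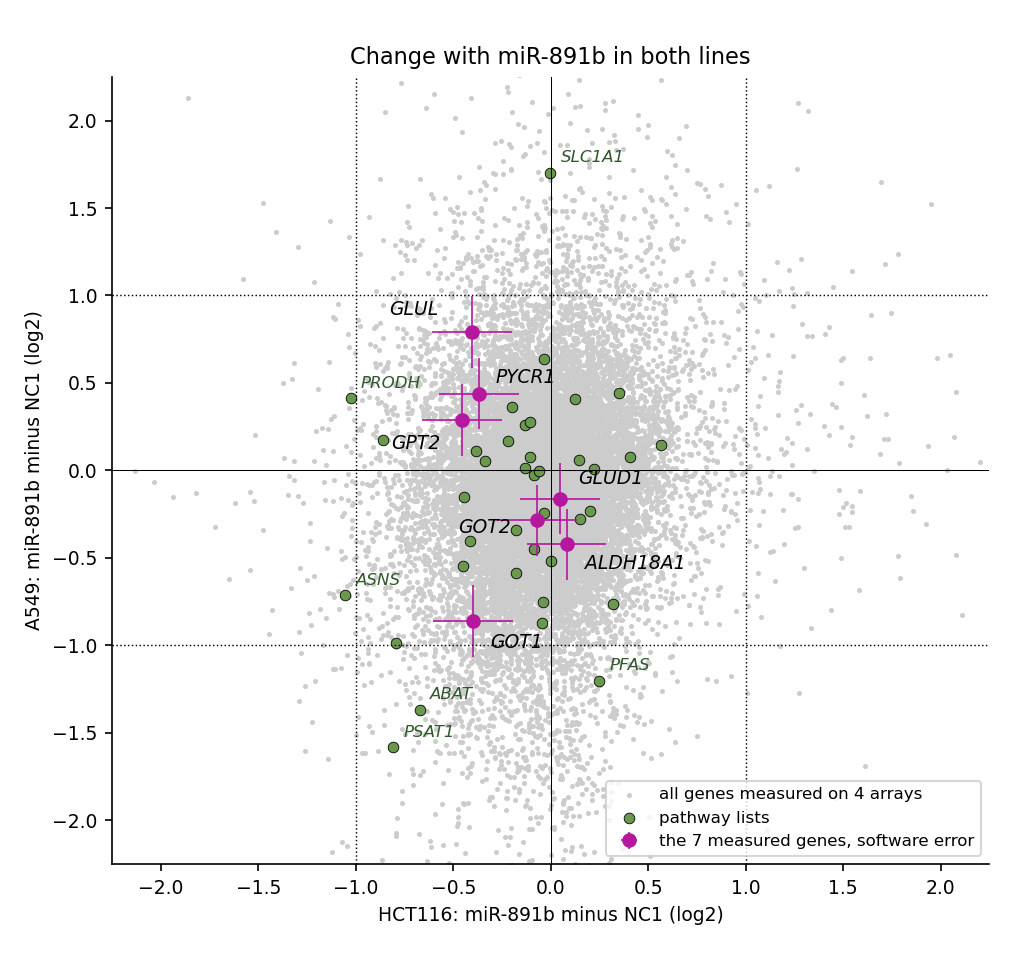
Change with miR-891b (log2) in HCT116 (horizontal) and A549 (vertical) for the 7 measured genes with the software's error, for the measured genes of the 4 pathway lists, and for all genes measured on 4 arrays in grey, with dotted lines at 2-fold; points beyond the axes are not drawn. The 7 genes lie inside the 2-fold lines, and SLC1A1 lies past the line in A549 with a change near 0 in HCT116.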

How the data were processed

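Cy3-labelled RNA of 4 samples was hybridised to 1-colour Agilent arrays, and samples were grouped by title. Per the file headers, Feature Extraction 11.5.1.1 read the scans, subtracting background and trends within an array, and placed probes on hg19. Intensity values in the deposited scanner files carry no scaling between arrays. The deposited value table holds log2 values, whose making is not given in the sources used here. They differed from the levels used here by a median of 0.00691 or less per array, and by at most 0.011 for the 9 genes.

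Outlier spots were dropped, log2 processed signals were averaged for each probe, and the 75th percentile over gene probes was subtracted from each array. A gene was represented by its brightest probe and counted as measured in a comparison where both arrays had that probe well above background. With 1 array per group, changes were called by size (2-fold) and no test was run. Precision is limited by the number of arrays.

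The members and the pathway and marker lists were chosen with earlier results of these data known. Named genes were all members with every probe, list genes past 2-fold and up to 4 other examples of a list. These examples were not in every list the largest by size. Also named were GLUD2, as a near copy of GLUD1, and the 3 nearest patterns to the member with the largest summed change. CCBL1, CCBL2 and PYCRL are the array's names for KYAT1, KYAT3 and PYCR3. The lists are counted without 2 of their genes, which are not reported here. All 9 member symbols are current in RefSeq. Areas of stray signal were taken within 10 rows and columns of a spot.

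On simulated data the steps called 199 of 199 changed genes among 20709 for HCT116 and 200 of 200 among 22387 for A549, with 0 unchanged genes called. The planted changes were all well past 2-fold, and the added noise was small and held no spread between cultures. The simulation thus checked that the steps run correctly. It cannot show how reliable the calls on these arrays are, nor how smaller changes are called. Alternatives were normexp background correction (offset 50, limma 3.58.1 in R 4.3.3), quantile normalization, median scaling, the authors' values, the mean over probes, no filter on dim probes, leaving out areas of stray signal and a 1.5-fold threshold. The remaining steps used numpy 2.4.6 and pandas 2.3.3 under Python 3.11.15.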

Additional observations from a re-analysis of the deposited data

Results flagged for a closer look

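Of the 7 measured genes, 5 had values of opposite sign in the lines, none of them past 2-fold. Opposite signs were also found for 45.1% of the 18066 genes measured on all arrays. For 3 of the 5 (GLUL, PYCR1 and GPT2) both values exceeded the software's error of 0.204. With normexp GPT2 in A549 was at 0.198, and with quantile normalization PYCR1 in HCT116 was at -0.17, both within that error. That error is small beside the SD of the changes over all genes, 0.38 in HCT116 and 0.61 in A549. The share of all genes with opposite signs and both values past the error was not computed, so the 3 genes cannot be called unusual. The A549 change minus the HCT116 change was 1.20 for GLUL, 0.81 for PYCR1, 0.74 for GPT2, -0.50 for ALDH18A1 and -0.21 for GLUD1. With a single array in each group, these differences were not tested. The GLUD1 values were within the software's error in both lines, and that of ALDH18A1 was in HCT116.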

How the results depend on the processing

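No measured gene was past 2-fold in either line under any of the 7 other settings at that threshold. Most of these settings could hardly alter the measured genes. The no-filter and stray-area settings left their values unchanged, and the authors' values were nearly the same levels. The mean over probes could alter PYCR1 only, and median scaling shifted all genes of a line alike. Normexp and quantile normalization were the settings that moved genes unevenly. At 1.5-fold, 1 gene (GOT1) was lower and 1 (GLUL) was higher in A549, where 15.3% and 11.1% of all genes were. With normexp GLUL was within 1.5-fold, at 0.55, and with quantile normalization PYCR1 was past it, at 0.74. The HCT116 median of the members was -0.30 with normexp, -0.17 with quantile normalization and -0.071 with no filter on dim probes, which adds GLS2 and GPT. The HCT116 medians of all genes under these settings were -0.02, -0.03 and 0.20. The A549 median of the members was 0.11 with quantile normalization and -0.0002 with no filter, where all genes had -0.0062 and -0.0182. GOT2 changed sign under quantile normalization, and no other member did so for its change under any setting. GOT1 ranged from -0.40 to -0.36 in HCT116 and from -0.87 to -0.72 in A549, GLUL from 0.55 to 0.85 in A549, and PYCR1 from -0.37 to -0.17 in HCT116 and from 0.41 to 0.74 in A549. PRODH in HCT116 turned to 0.30 with the mean over its probes that were well above background on both arrays. The cause of these shifts was not tested. The A549 minus HCT116 differences under other scalings were added after the data were seen. No fit with the slide as a block was run, since both arrays of a line shared a slide. No paired analysis was possible because each group has 1 array. Signals not well above background left GLS2 and GPT without a value.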

Other observations

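The pathway lists also differed between the lines on the NC1 arrays. Of 38 list genes well above background on both, A549 was at least 2-fold lower for 9 and at least 2-fold higher for 8, where 16.2% and 11.1% of all genes were. The A549 minus HCT116 difference was -5.56 for SLC1A3, a glutamate importer, and -3.66 for NAGS, which makes the N-acetylglutamate that activates the urea cycle. It was -2.86 for SLC1A1, -2.49 for ASNS and -2.47 for ABAT. The SLC1A3 signal in A549 with NC1 was dim, at 8.565 with an error of 17.3%. Genes higher in A549 included PRODH (2.44), the cystine and glutamate exchanger SLC7A11 (1.71), and both subunits of glutamate-cysteine ligase, GCLC (1.55) and GCLM (1.41). These examples were chosen after their values were seen.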
